A study of Mus musculus with 16 samples.

Results

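The genes described here are 10 regulators of the hepatic response to insulin and fasting: Insr, Irs1, Irs2, Pik3r1, Foxo1, Foxo3, Igfbp1, Trib1, Sik1 and Creb3l3. They were chosen by gene name from a table of 53714 genes, all 10 were found, and all 10 were among the 13905 genes with enough counts to test. The libraries came from livers of male mice aged 9 weeks, 4 per group. Fasted KO mice (Slc25a47hep-/-) had no food overnight and were set against fasted WT mice (Slc25a47hep+/+), and fed KO mice (Slc25a47hep-/-) had chow and were set against fed WT mice (Slc25a47hep+/+). All 4 groups carry the strain label C57BL/6 Slc25a47tm1c(EUCOMM)Hmgu, in which tm1c denotes a conditional allele, so WT livers are labelled with the same allele as KO livers. The Cre driver that removes the gene from hepatocytes is not given in the sources used here. Nothing in the labels beyond numbered samples describes how the 4 mice of a group were bred or killed. The p-values set group differences against the spread between these samples and take the samples as independent.

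In the fed state insulin binds its receptor on hepatocytes, insulin receptor substrates recruit phosphoinositide 3-kinase, and the kinase AKT phosphorylates FOXO transcription factors and keeps them out of the nucleus. In fasting insulin falls and glucagon rises, FOXO proteins and the cyclic AMP factor CREB become active in the nucleus, and genes of glucose output and fatty acid use are transcribed. Much of this control acts on protein phosphorylation and location, which messenger RNA levels do not measure.

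Expression was read from raw counts per gene, and levels are given in CPM, the share of a library's gene reads after scaling with the trimmed mean of M-values (TMM). Reads assigned to genes numbered 19609584 to 27349613 per library, and the 10 genes had 362 to 35765 reads per library. Slc25a47, the targeted gene, had 163 to 330 CPM in fasted KO livers and 854 to 1139 CPM in fasted WT livers, and 81.8 to 153 CPM in fed KO livers and 460 to 835 CPM in fed WT livers. Markers of hepatocytes summed to 73910 to 119100 CPM over all libraries (5 of the 6 listed were found by symbol). In the fed state they summed to 76480 to 110000 CPM in KO and 110300 to 114700 CPM in WT. All 6 stellate cell markers listed were detected in every group, and their sum did not overlap between genotypes: 349 to 415 CPM in fasted KO, 267 to 318 CPM in fasted WT, 346 to 409 CPM in fed KO and 256 to 297 CPM in fed WT. The TMM factors (1 to 1.141 in KO, 0.903 to 0.966 in WT) and the percentage of multi-mapped reads among all counts (32.0% to 39.3% in KO, 40.4% to 45.8% in WT) also differed without overlap. Among fasted WT livers, replicates 2 and 4 held pancreatic acinar transcripts at 1457 and 399.7 CPM in sum, against 0.58 and 29.7 CPM in fasted WT replicates 1 and 3. Smaller sums stood in fasted KO replicate 1 (60.5 CPM) and fed KO replicate 3 (14.0 CPM). The fits without libraries rich in pancreatic transcripts left out only fasted WT replicates 2 and 4. The part of these measures in the differences below was not tested. In whole liver, fewer cells of a type and less RNA per cell cannot be told apart.

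Promoter windows from RefSeq (build GRCm38.p6, 250 bases before to 50 after each annotated start) were at hand for 7 of the 10 genes, in 9 windows; none was used for Insr, Trib1 and Sik1. The 4 windows shown here are those that hold the letters CAAAACA or, on the other strand, TGTTTTG, the core of the insulin response element first described in IGFBP1 and PCK1 promoters and bound by FOXO proteins. Capitals mark this core and the E-box CACGTG, and each sequence runs 5′ to 3′ on the strand of its gene.
Igfbp1, chr11:7197537-7197836, plus strand: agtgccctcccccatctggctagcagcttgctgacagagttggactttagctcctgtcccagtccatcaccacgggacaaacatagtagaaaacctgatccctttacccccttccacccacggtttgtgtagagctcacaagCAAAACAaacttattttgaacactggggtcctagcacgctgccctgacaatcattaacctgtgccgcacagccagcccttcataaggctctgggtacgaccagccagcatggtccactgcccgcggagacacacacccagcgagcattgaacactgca
Irs1, chr1:82291390-82291689, minus strand: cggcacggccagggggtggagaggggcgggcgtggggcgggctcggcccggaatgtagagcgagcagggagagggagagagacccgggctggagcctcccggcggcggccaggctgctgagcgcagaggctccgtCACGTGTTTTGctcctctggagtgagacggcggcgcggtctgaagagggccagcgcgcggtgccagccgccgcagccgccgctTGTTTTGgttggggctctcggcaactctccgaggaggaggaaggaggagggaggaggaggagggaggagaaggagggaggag
Irs2, chr8:11008880-11009179, minus strand: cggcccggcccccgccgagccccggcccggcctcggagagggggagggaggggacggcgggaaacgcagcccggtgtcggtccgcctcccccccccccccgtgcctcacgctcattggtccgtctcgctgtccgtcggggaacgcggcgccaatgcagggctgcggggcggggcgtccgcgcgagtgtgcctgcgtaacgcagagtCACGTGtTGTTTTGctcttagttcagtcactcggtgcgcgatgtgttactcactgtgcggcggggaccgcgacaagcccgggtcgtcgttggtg
Creb3l3, chr10:81092542-81092841, minus strand: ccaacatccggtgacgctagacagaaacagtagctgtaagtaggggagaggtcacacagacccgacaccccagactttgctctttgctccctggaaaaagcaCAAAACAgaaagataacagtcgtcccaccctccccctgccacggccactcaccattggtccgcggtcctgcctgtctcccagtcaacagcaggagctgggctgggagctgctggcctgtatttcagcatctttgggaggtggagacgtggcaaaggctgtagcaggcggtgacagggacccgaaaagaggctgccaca

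Counted from the annotated start, the Igfbp1 core began at position -108 and the Creb3l3 core at -148. The Creb3l3 window shown belongs to an annotated start inside the gene, and the window at its outer start (chr10:81098823-81099122) held no core. Irs1 had 2 cores, at -111 and -32, and an E-box at -115 whose last 2 bases are the first bases of the upstream core. Irs2 had a core at -37 and an E-box at -44, so the windows of both substrate genes hold an E-box and a core side by side. The Irs2 window lies wholly upstream of the gene span given for Irs2 below, so its positions count from a RefSeq start outside that span. On either strand the core stands in 6.28% of 32851 mouse promoter windows of the same length, and CACGTG, which reads the same on both strands, in 7.15%. The forkhead letters GTAAACA or TGTTTAC, present in 3.65% of windows, were in none of the 9. The cyclic AMP half-site TGACG or CGTCA, present in 20.8% of windows, was found in Irs1 at -118, in Creb3l3 at -239, in Foxo3 at -64 and in 1 of 2 Pik3r1 windows at -35, that of a start inside the gene. None of the motifs searched was in the Foxo1 window or in the second Creb3l3 window. A match of letters describes the window and shows no binding.

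**Figure D1:**
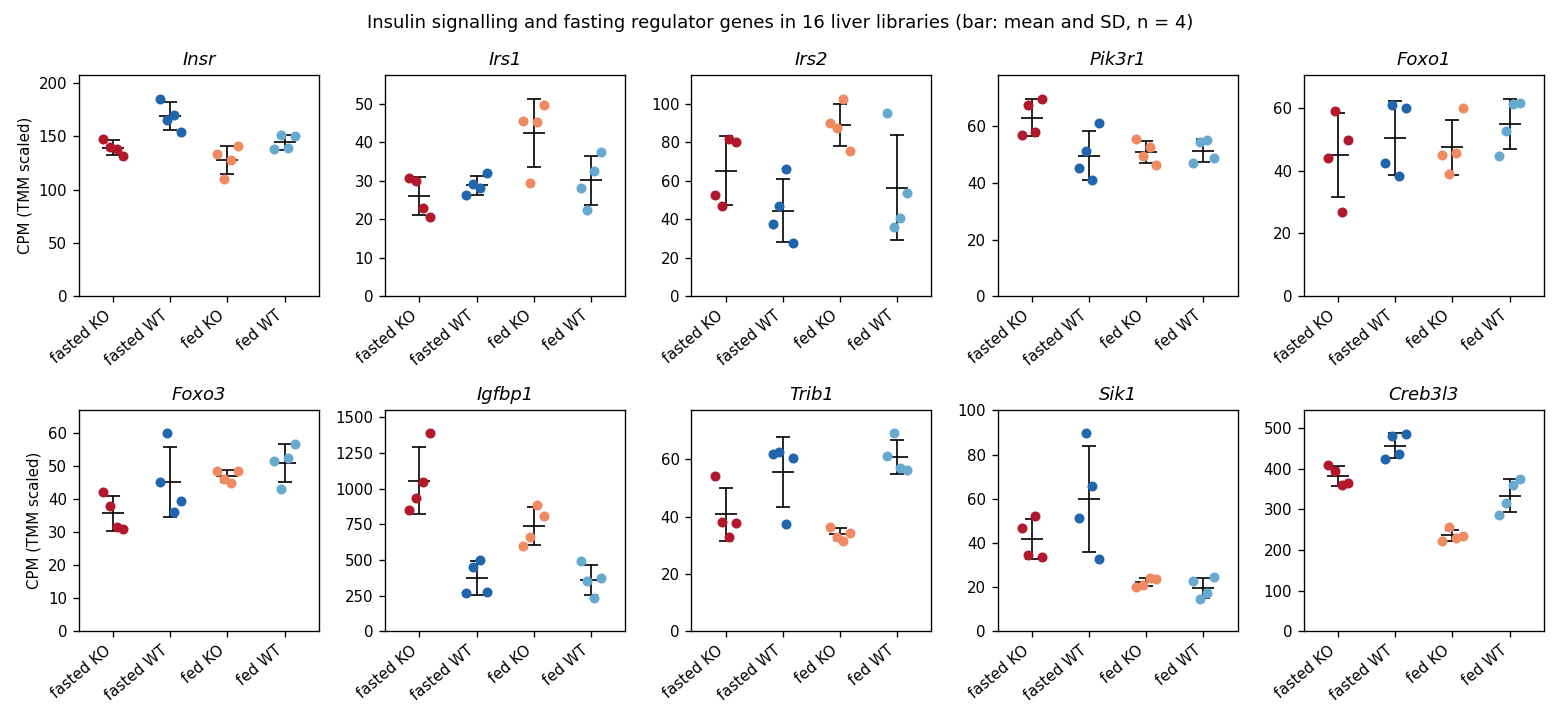
Level of each of the 10 genes in every liver library, in CPM (linear axis from 0), by group; points are libraries and bars are the mean and SD of 4. Igfbp1 lies higher in KO than in WT libraries in both feeding states, Trib1 and Creb3l3 lie lower in fed KO than in fed WT libraries, and Sik1 and Creb3l3 lie higher in fasted than in fed libraries of each genotype.

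Igfbp1 was higher in KO than in WT livers of both feeding states. Trib1 and Creb3l3 were lower in KO livers, less firmly in the fasted than in the fed state. In fed livers, edgeR's quasi-likelihood test with Benjamini-Hochberg adjustment over all genes tested called 4 of the 10 genes between KO and WT: Irs1 and Igfbp1 were higher, Trib1 and Creb3l3 lower. At the same threshold (adjusted p under 0.05) 30.9% of all genes tested were called, 14.0% higher and 16.9% lower. In fasted livers 5 of the 10 were called, with Pik3r1 and Igfbp1 higher and Insr, Trib1 and Creb3l3 lower in KO, beside 28.3% of all genes (13.8% higher, 14.5% lower). Of 25 alternative ways of processing, 18 lost the fasted call of Trib1, 8 that of Creb3l3 and 0 that of Igfbp1. Fasted KO against fed KO livers gave 5 calls, Pik3r1, Sik1 and Creb3l3 higher and Irs1 and Foxo3 lower in fasted livers, beside 41.4% of all genes (21.1% higher, 20.3% lower). Fasted WT against fed WT livers gave 3 calls, Insr, Sik1 and Creb3l3, all higher in fasted livers, beside 34.5% of all genes (16.2% higher, 18.3% lower). The 4 and 3 calls of fed KO against fed WT and of fasted WT against fed WT livers lie near the shares of all genes, and both counts of 5 lie above them by 1 or 2 genes. The fasted genotype count was 3 without fasted KO replicate 2 or 3 or fasted WT replicate 2, and 2 without fasted KO replicate 4 or fasted WT replicate 1. The KO fasting count was 3 without fasted KO replicate 4 or fed KO replicate 4. The genotype and fasting comparisons share their groups, so their calls are not independent of each other. Calls and directions are relative to TMM scaling: scaled by library totals, the median of all genes was 0.22 and 0.20 on the log2 scale in fed and fasted KO against WT livers, instead of -0.01 and 0.01.

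The groups did not overlap for 3 genes between fed KO and fed WT livers (28.4% of all genes) and for 3 between fasted KO and fasted WT livers (29.5% of all genes). Between feeding states they did not overlap for 4 genes in KO livers (38.2% of all genes) and for 3 in WT livers (32.8% of all genes). Whether the fasting response differed between genotypes was tested as an interaction. None of the 10 genes was called by edgeR's quasi-likelihood test (0 of 10, beside 1.70% of all genes, 1.07% higher and 0.633% lower), 2 had an unadjusted p under 0.05, and the DESeq2 Wald test called 0. A call in 1 genotype or feeding state and not in the other is therefore not shown to be a difference between them.

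**Figure D2:**
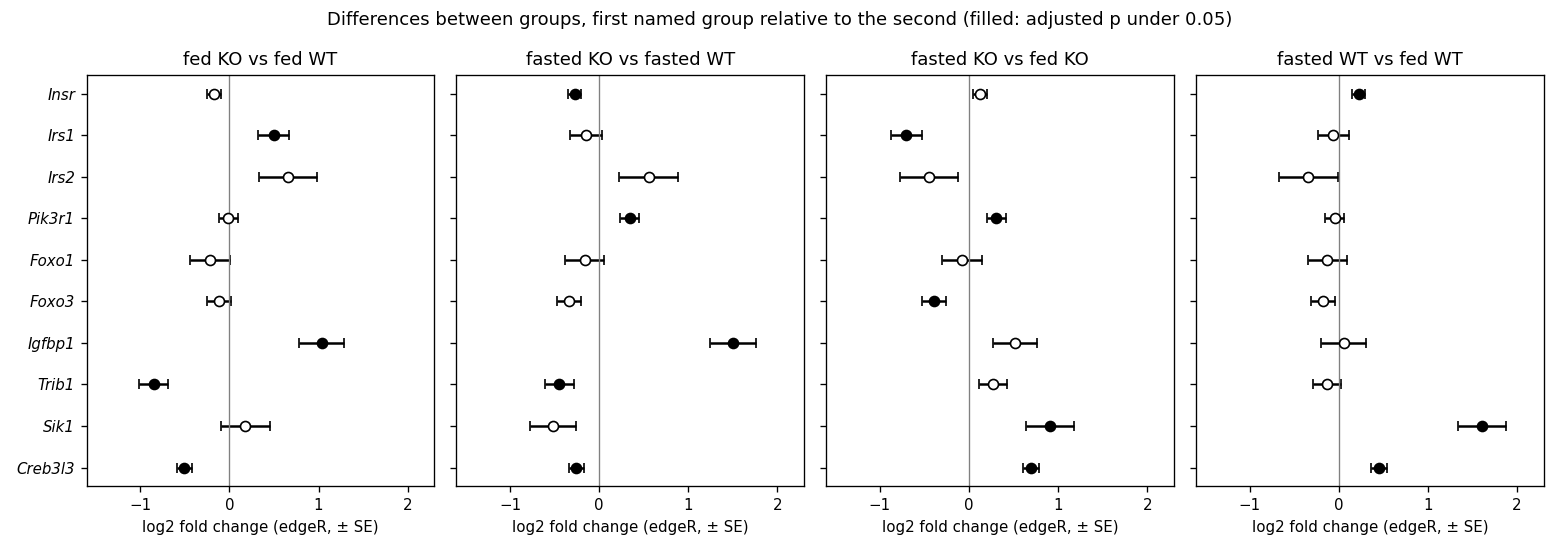
Log2 fold change (edgeR) of each gene, with an SE derived from the F statistic. The comparisons are fed KO against fed WT, fasted KO against fasted WT, fasted KO against fed KO and fasted WT against fed WT livers. Filled points have an adjusted p under 0.05. Igfbp1 is the farthest from 0 between genotypes, at 1.04 in fed and 1.498 in fasted livers, and Sik1 between feeding states of WT livers, at 1.61.

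Insr (ENSMUSG00000005534, chr8:3122061-3279617, minus strand) encodes the insulin receptor, the tyrosine kinase that starts the cascade. It had 147.9, 140.3, 137.7 and 131.6 CPM in fasted KO livers and 185.4, 165.3, 170 and 153.9 CPM in fasted WT livers. In the fed state it had 133.4, 110.1, 127.8 and 140.8 CPM in KO and 137.7, 151.1, 139.2 and 150.1 CPM in WT. Every fasted KO liver lay below every fasted WT liver, while the fed genotypes overlapped. By edgeR's quasi-likelihood test with Benjamini-Hochberg adjustment over all genes tested, Insr fell by 0.28 ± 0.08 on the log2 scale in fasted KO against fasted WT livers (SE, adjusted p = 0.0117). The fed difference between genotypes was -0.18 ± 0.08 (adjusted p = 0.0907). In WT livers fasting raised Insr by 0.22 ± 0.08 (adjusted p = 0.0311) with no overlap between feeding states, and in KO livers the difference was 0.12 ± 0.08 (adjusted p = 0.212). The fasted genotype call was lost without fasted WT replicate 1 (adjusted p = 0.0523) and with scaling by library totals alone (-0.09, adjusted p = 0.362). The WT fasting call was lost without fasted WT replicate 1 or 3 or fed WT replicate 1 or 3 (adjusted p = 0.117, 0.0619, 0.0886 and 0.0799), with library totals alone (0.0727) and with no filter on low counts (0.108). Without fed KO replicate 4 the fed difference passed the threshold (-0.22, adjusted p = 0.045).

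Irs1 and Irs2 encode the main docking proteins between the receptor and phosphoinositide 3-kinase in liver. In fasting, Irs1 (ENSMUSG00000055980, chr1:82233101-82291416, minus strand) had 30.8, 29.8, 23.0 and 20.6 CPM in KO livers and 26.2, 29.1, 28.0 and 32.0 CPM in WT livers. Fed, it had 45.4, 29.5, 45.1 and 49.7 CPM in KO livers and 28.1, 22.3, 32.4 and 37.4 CPM in WT livers. In 3 of 4 fed KO livers Irs1 stood above all libraries of the other groups, and fed KO replicate 2 stood among them. Irs1 was 1.41-fold higher in fed KO than in fed WT livers (log2 0.50 ± 0.18, adjusted p = 0.0431), and the fasted genotype difference was -0.15 ± 0.18 (adjusted p = 0.579). Fasting lowered it in KO livers, where it fell by 0.70 ± 0.18 on the log2 scale (adjusted p = 0.00488). In WT livers the fasting difference was -0.06 ± 0.18 (adjusted p = 0.834). The difference between those fasting responses was -0.64 ± 0.25, with an unadjusted p = 0.0209 and an adjusted p = 0.21.

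The KO fasting call for Irs1 held under every alternative tried with the threshold of 0.05 (highest adjusted p = 0.0188). The fed genotype call of Irs1 lay close to the threshold and was lost in 15 of 25 alternatives. It was lost without fed KO replicate 1, 3 or 4 (adjusted p = 0.0947, 0.0996 and 0.121), without fed WT replicate 1, 2 or 3 (0.0958, 0.124 and 0.0606), without any 1 of the fasted WT replicates (0.0501 to 0.0539) and without both fasted WT libraries rich in pancreatic transcripts (0.0616). It was also lost with no filter on low counts (0.127) and when only the 8 fed libraries were fitted (0.0734).

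Irs2 (ENSMUSG00000038894, chr8:10984681-11008458, minus strand), the substrate gene that FOXO1 is known to induce in fasted liver, varied more between mice than Irs1. It had 52.9, 46.8, 81.9 and 79.9 CPM in fasted KO livers, against 37.3, 46.7, 65.9 and 27.7 CPM in fasted WT livers. In fed KO livers it had 89.8, 87.5, 102.7 and 75.7 CPM, against 95.4, 35.8, 40.6 and 53.9 CPM in fed WT livers. The groups overlapped in both feeding states, in the fed state through fed WT replicate 1 alone. No comparison of Irs2 passed the test: the genotype difference was 0.66 ± 0.33 in fed livers (adjusted p = 0.147) and 0.56 ± 0.33 in fasted livers (adjusted p = 0.236). The fasting difference was -0.45 ± 0.33 in KO livers (adjusted p = 0.299) and -0.34 ± 0.33 in WT livers (adjusted p = 0.468). Without fed WT replicate 1 the fed genotype difference was 1.04 and passed (adjusted p = 0.0187). Per kilobase of exon, Irs2 stood above Irs1 in every library: the ratio was 3.88 ± 1.74 in fasted KO, 2.26 ± 0.889 in fasted WT, 3.16 ± 0.875 in fed KO and 2.78 ± 1.43 in fed WT livers (SD, n = 4 each), with overlap between all groups. Irs1, Irs2 and Foxo1 share exon bases with antisense genes, which had at most 3 reads in any library. The shared bases were 2822 of 9144 in Irs1, 162 of 6323 in Irs2 and 674 of 8665 in Foxo1. The strand setting of the counting is not known here. If it ignored strand, reads in shared bases were left out as meeting more than 1 gene. Any effect on the levels and ratios per kilobase of these genes was not tested.

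Pik3r1 (ENSMUSG00000041417, chr13:101680563-101768217, minus strand) encodes p85alpha, the regulatory subunit that binds phosphorylated substrate proteins and holds the catalytic subunit. It had 56.8, 67.6, 57.8 and 69.7 CPM in fasted KO livers, against 45.2, 51.3, 40.9 and 61.2 CPM in fasted WT livers. Fed, it had 55.5, 49.3, 52.6 and 46.3 CPM in KO livers, against 46.9, 54.4, 55 and 48.8 CPM in WT livers. The fasted KO livers were the highest group, and fasted WT replicate 4 lay inside their range. Pik3r1 was 1.27-fold higher in fasted KO than in fasted WT livers (log2 0.34 ± 0.11, adjusted p = 0.0206) and 1.24-fold higher in fasted KO than in fed KO livers (0.31 ± 0.11, adjusted p = 0.0259). The fed genotype difference was -0.01 ± 0.11 (adjusted p = 0.953) and the WT fasting difference -0.05 ± 0.11 (adjusted p = 0.771). The fasting responses differed between genotypes by 0.35 ± 0.15, at an unadjusted p = 0.0293 and an adjusted p = 0.236.

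Both Pik3r1 calls depended on single libraries. The fasted genotype call was lost without fasted KO replicate 2 or 4 (adjusted p = 0.0599 and 0.0732), without fasted WT replicate 1 or 3 (0.0665 and 0.0771) and when only the 8 fasted libraries were fitted (0.0517). Without both fasted WT libraries rich in pancreatic transcripts the difference was larger (log2 0.55). The KO fasting call was lost without fasted KO replicate 2 or 4 (0.0722 and 0.0843), without fed KO replicate 2 or 4 (0.0571 and 0.0781) and with library totals alone (0.139).

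Foxo1 and Foxo3 encode forkhead factors that AKT inactivates, with Foxo1 the better known driver of hepatic glucose production. Foxo1 (ENSMUSG00000044167, chr3:52268336-52353221, plus strand) averaged 44.9 ± 13.5 CPM in fasted KO and 50.4 ± 11.7 CPM in fasted WT livers, and 47.4 ± 8.80 CPM in fed KO and 54.9 ± 7.95 CPM in fed WT livers (SD, n = 4 each). All groups overlapped, and the lowest library was fasted KO replicate 3 at 26.9 CPM. No Foxo1 comparison passed the test: the genotype differences were -0.22 ± 0.22 fed and -0.16 ± 0.22 fasted (adjusted p = 0.494 and 0.632). The fasting differences were -0.07 ± 0.22 in KO and -0.13 ± 0.22 in WT livers (adjusted p = 0.817 and 0.709).

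Foxo3 (ENSMUSG00000048756, chr10:42181841-42276755, minus strand) had 42.2, 38.0, 31.6 and 30.9 CPM in fasted KO livers and 45.2, 59.9, 36.0 and 39.5 CPM in fasted WT livers. In fed livers it had 48.4, 46.0, 45.0 and 48.4 CPM in KO and 51.6, 43.0, 52.6 and 56.8 CPM in WT. Every fasted KO liver was below every fed KO liver. Fasting lowered Foxo3 in KO livers, where it fell by 0.40 ± 0.14 on the log2 scale (adjusted p = 0.0261), and the WT fasting difference was -0.18 ± 0.14 (adjusted p = 0.345). The genotype differences were -0.34 ± 0.14 in fasted livers (adjusted p = 0.0716) and -0.12 ± 0.13 in fed livers (adjusted p = 0.53). The KO fasting call was lost without fasted KO replicate 3 or 4 (adjusted p = 0.0787 and 0.0828), without fed KO replicate 1 or 4 (0.0568 and 0.059) and with no filter on low counts (0.0535). The fasted genotype difference passed without fasted KO replicate 1 (0.023) or fasted WT replicate 3 (0.0234), and the WT fasting difference passed without fasted WT replicate 2 (0.0284). Per kilobase of exon the ratio of Foxo1 to Foxo3 was 1.10 ± 0.326 in fasted KO, 0.991 ± 0.230 in fasted WT, 0.880 ± 0.145 in fed KO and 0.946 ± 0.135 in fed WT livers, with overlap between groups.

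Igfbp1 (ENSMUSG00000020429, chr11:7197782-7202546, plus strand) encodes a secreted protein that binds insulin-like growth factors, and its transcription is raised by FOXO1 and lowered by insulin; its promoter core is shown above. It had 851.2, 937.3, 1046 and 1388 CPM in fasted KO livers, against 270.9, 447.9, 499.1 and 277 CPM in fasted WT livers. In fed KO livers it had 600.3, 658.8, 882.5 and 811.4 CPM, against 490, 349.6, 230.3 and 369.9 CPM in fed WT livers. All 8 KO libraries lay above all 8 WT libraries, whatever the feeding state. Igfbp1 was 2.82-fold higher in fasted KO than in fasted WT livers (log2 1.498 ± 0.26, adjusted p = 0.00064) and 2.05-fold higher in fed KO than in fed WT livers (1.04 ± 0.25, adjusted p = 0.00709). Both calls held under all 25 alternatives tried (log2 1.34 to 1.69 in fasted and 0.87 to 1.26 in fed livers). Stellate markers, TMM factors and the multi-mapped share moved with genotype in the same libraries, as given above. Their part in the Igfbp1 difference was not tested. With scaling by library totals Igfbp1 was also higher in KO. That scaling moved the median of all genes up in KO (log2 0.215 fed, 0.198 fasted), so it could not test this direction. In WT livers the fasted to fed difference of Igfbp1 was 0.05 ± 0.25 (1.04-fold, adjusted p = 0.895). In KO livers the fasted to fed difference was 0.52 ± 0.25 (adjusted p = 0.115), and it passed only when the 8 KO libraries were fitted alone (adjusted p = 0.0271). The fasting responses differed between genotypes by 0.46 ± 0.35 (adjusted p = 0.565).

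Trib1 (ENSMUSG00000032501, chr15:59648350-59657099, plus strand) encodes a pseudokinase that brings the ubiquitin ligase COP1 to the transcription factor C/EBPalpha and in mouse liver restrains lipid synthesis. It had 54.2, 38.3, 32.9 and 37.9 CPM in fasted KO livers and 61.95, 62.7, 37.5 and 60.4 CPM in fasted WT livers. In fed livers it had 36.5, 33, 31.5 and 34.2 CPM in KO and 61, 69.1, 57.1 and 56.2 CPM in WT. The fed genotypes were far apart, and the fasted ones overlapped through a high fasted KO replicate 1 and a low fasted WT replicate 3. Trib1 was 1.801-fold lower in fed KO than in fed WT livers (log2 -0.85 ± 0.16, adjusted p = 0.000901), and this call held under all 25 alternatives (log2 -0.89 to -0.62). In fasted livers the difference was -0.45 ± 0.16 and passed narrowly (adjusted p = 0.0457). That call was lost in 18 of 25 alternatives, among them leaving out any 1 of fasted KO replicates 2, 3 and 4 (adjusted p = 0.103, 0.128 and 0.116), of fasted WT replicates 1, 2 and 4 (0.118, 0.119 and 0.105), of the fed KO replicates (0.0549 to 0.0597) or of fed WT replicates 1, 3 and 4 (0.0582, 0.0561 and 0.0552). Without both fasted WT libraries rich in pancreatic transcripts it was -0.28 (adjusted p = 0.328), and with library totals alone -0.27 (0.172). Fasting differences were 0.27 ± 0.16 in KO (adjusted p = 0.182) and -0.13 ± 0.16 in WT livers (adjusted p = 0.567).

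Sik1 (ENSMUSG00000024042, chr17:31844250-31855804, minus strand) encodes a salt-inducible kinase that is itself a cyclic AMP target and phosphorylates CRTC coactivators, which keeps them from CREB. It had 46.85, 34.5, 52.1 and 33.8 CPM in fasted KO livers, against 20.2, 21.05, 24.25 and 23.4 CPM in fed KO livers. It had 51.45, 89.6, 65.8 and 32.5 CPM in fasted WT livers, against 22.7, 14.5, 17.1 and 24.35 CPM in fed WT livers. Every fasted library lay above every fed library of either genotype, and the fasted WT livers were the most spread. Fasting raised Sik1 1.88-fold in KO livers (log2 0.91 ± 0.27, adjusted p = 0.0143) and 3.05-fold in WT livers (1.61 ± 0.27, adjusted p = 0.000457). The WT call held under all 25 alternatives (log2 1.35 to 1.81), and the KO call under all but the threshold of 0.01. The difference between the responses was -0.70 ± 0.38 (adjusted p = 0.375). Between genotypes Sik1 did not pass: 0.18 ± 0.27 in fed livers (adjusted p = 0.649) and -0.52 ± 0.26 in fasted livers (adjusted p = 0.159). Without fasted WT replicate 4 the fasted difference was -0.72 and passed (adjusted p = 0.0216).

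Creb3l3 (ENSMUSG00000035041, chr10:81084324-81098874, minus strand) encodes CREB-H, a liver and gut transcription factor held in the endoplasmic reticulum membrane and released in fasting, when it activates genes of fatty acid and triglyceride handling. It had 409.5, 394.4, 359.2 and 365.2 CPM in fasted KO livers, against 423.9, 480.2, 436.9 and 483.8 CPM in fasted WT livers. In fed KO livers it had 222.4, 255.9, 230.2 and 233.3 CPM, against 286.3, 316.1, 358.8 and 373.3 CPM in fed WT livers. Libraries of the 2 genotypes did not overlap in either feeding state, nor did those of the 2 feeding states in either genotype. Fasting raised Creb3l3 1.62-fold in KO livers (log2 0.70 ± 0.09, adjusted p = 4.74e-06) and 1.37-fold in WT livers (0.45 ± 0.09, adjusted p = 0.000458). Both fasting calls held under all 25 alternatives. It was 1.42-fold lower in fed KO than in fed WT livers (log2 -0.50 ± 0.09, adjusted p = 0.000256) and 1.19-fold lower in fasted KO than in fasted WT livers (-0.26 ± 0.09, adjusted p = 0.0315). The fed call held under all 25 alternatives, at -0.28 with library totals alone. The fasted call was lost without fasted KO replicate 3 or 4 (adjusted p = 0.0906 and 0.0819), without fasted WT replicate 2 or 4 (0.0847 and 0.081), without both of these WT libraries, which were those rich in pancreatic transcripts (0.267), and with library totals alone (-0.07, 0.535) and with no filter on low counts (0.0522). The fasting responses differed between genotypes by 0.25 ± 0.12 (adjusted p = 0.308).

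Per kilobase of exon, Igfbp1 was the most abundant of the 10 transcripts in every group. Its mean level per kilobase was 692 ± 154.5 CPM in fasted KO, 245 ± 76.8 CPM in fasted WT, 484 ± 85.9 CPM in fed KO and 236 ± 69.8 CPM in fed WT livers (SD, n = 4 each). Creb3l3 came next, at 127 ± 7.92, 151 ± 10.1, 78.1 ± 4.77 and 111 ± 13.2 CPM per kilobase in the same groups. The other 8 lay between 2.85 and 14.1 CPM per kilobase, and many neighbours in that order differed by less than their SD, such as Irs2 and Insr in fasted KO livers (10.3 ± 2.87 and 10.1 ± 0.489) or Foxo3 and Foxo1 in fasted WT livers (5.96 ± 1.39 and 5.81 ± 1.35). Irs1 was the lowest in every group but fed KO, where Sik1 was (4.64 ± 0.970 for Irs1 and 4.33 ± 0.372 for Sik1). Irs2 and Sik1 varied most between mice of 1 group, with coefficients of variation of 48.1% in fed WT and 40.2% in fasted WT livers, while Insr stayed between 4.83% and 10.2% in all groups.

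Genes whose levels ran most like those of each of the 10 genes were found by the root mean square difference of log2 CPM z-scores over the 16 libraries, where a smaller value is a closer likeness. For Igfbp1 they were Jazf1 at 0.25, Mab21l3 at 0.30 and Acsl4 at 0.322, and for Creb3l3 they were Slc7a2 at 0.241, Pgm2 at 0.261 and Ephx2 at 0.27. The median over all genes compared was 1.36 for Igfbp1 and 1.41 for Creb3l3. For Sik1 they were Enc1, Mtx2 and Mtx3 (0.374 to 0.398), for Insr Bnip3l, Serinc1 and Bmpr2 (0.363 to 0.423), and for Pik3r1 Irgq, Foxp4 and Ccdc137 (0.372 to 0.455). Trib1 ran most like Cib3, Smarcd2 and Prdx5 (0.419 to 0.454), Foxo3 like Oaf, Mast3 and Acy1 (0.445 to 0.495), and Irs1 like Dsc2, Snx30 and Plekhf2 (0.475 to 0.496). Irs2 had no gene closer than Klhdc4 at 0.509, and Foxo1 none closer than Nfkbia at 0.594. Among the 10 genes themselves the closest pairs were Insr and Creb3l3 at 0.765, Irs2 and Igfbp1 at 0.778 and Sik1 and Creb3l3 at 0.781. These likenesses describe patterns over libraries that differ in genotype, feeding and depth, so they include the differences between groups. They were not tested.

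Other genes of the pathway were counted in 8 lists, shown in the plot of called shares, with counts by edgeR's quasi-likelihood test and adjusted p over all genes tested. Median log2 fold changes of all genes were -0.01 in fed KO against fed WT, 0.01 in fasted KO against fasted WT, -0.004 in fasted KO against fed KO and -0.02 in fasted WT against fed WT livers. The shares of all genes called were 30.9%, 28.3%, 41.4% and 34.5% in the same order. The share called in each list is set beside them as a description, and the difference between a list and all genes was not tested.

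**Figure D3:**
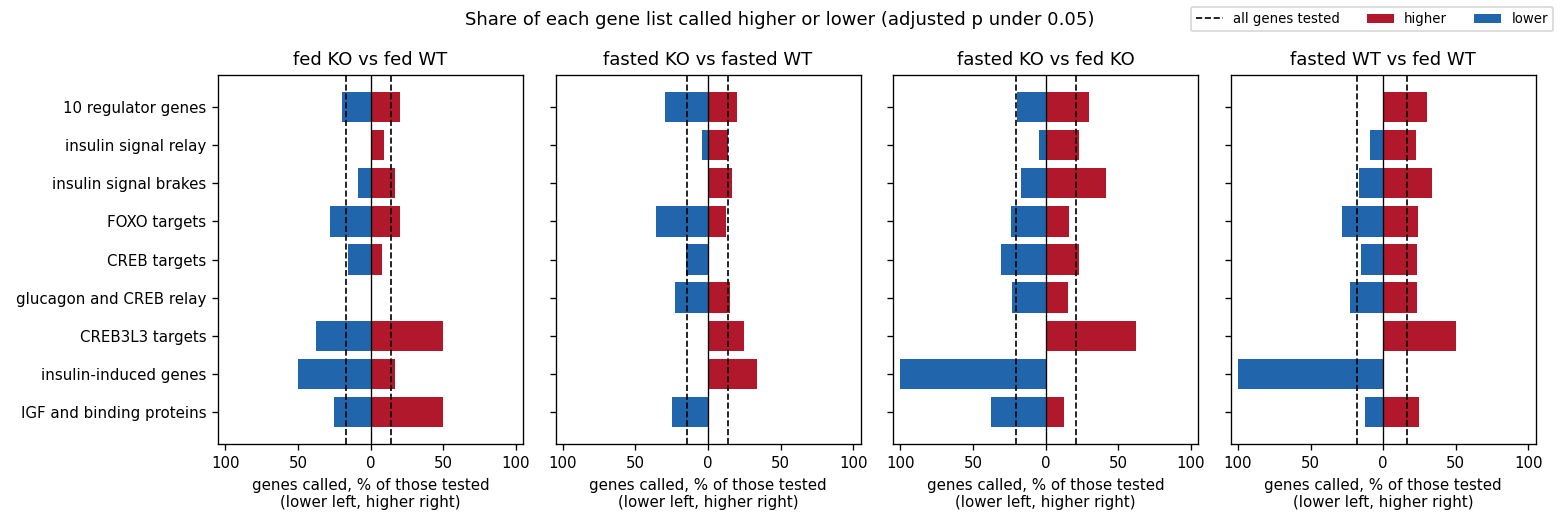
Percentage of each gene list called higher (right, red) or lower (left, blue) in each comparison, with dashed lines at the percentage of all genes tested. All 6 insulin-induced genes were lower in fasted than in fed livers of both genotypes, and no gene of the glucagon and CREB relay was called in fed KO against fed WT livers.

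Genes that insulin is known to induce through SREBP-1c and related factors were all lower in fasted livers, where 41.4% of all genes were called in KO and 34.5% in WT livers. In fasted KO against fed KO livers 6 of 6 were lower (median log2 -2.13), and in fasted WT against fed WT livers 6 of 6 (median -2.85). The fasting difference of Fasn, encoding fatty acid synthase, was -2.87 ± 0.20 in KO and -3.36 ± 0.21 in WT livers, and that of Acly, encoding ATP citrate lyase, -2.20 ± 0.17 in KO and -2.34 ± 0.17 in WT livers. Between genotypes they split: in fed KO livers Acaca was higher (0.69 ± 0.13) while Thrsp (-1.48 ± 0.27) and Pnpla3 (-2.10 ± 0.48) were among 3 lower, and in fasted KO livers 2 were higher, Acaca (0.59 ± 0.14) and Fasn (0.66 ± 0.19, adjusted p = 0.0184), and 0 lower, with a list median of -0.03. The genotype calls were 66.7% of the list in fed livers, beside 30.9% of all genes, and 33.3% in fasted livers, beside 28.3%. The fasted count was 1 without fasted WT replicate 1 or 3.

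Igf1 and the genes of its binding proteins gave 4 higher and 2 lower of 8 in fed KO against fed WT livers (median 0.345), and 0 higher and 2 lower in fasted KO against fasted WT livers (median -0.27). That is 75% of the list in fed livers, beside 30.9% of all genes, and 25% in fasted livers, beside 28.3%. The 4 higher became 2 without fed KO replicate 1 or fed WT replicate 2 or 3. Igf1 itself, the growth factor that IGFBP1 binds, was lower in KO livers in both states, at -0.52 ± 0.11 fed (adjusted p = 0.00107) and -0.63 ± 0.11 fasted (adjusted p = 0.000207). Igfals, the acid-labile subunit that stabilises circulating complexes, was also lower, at -0.64 ± 0.13 fed and -0.58 ± 0.13 fasted. Igfbp2 was 0.69 ± 0.14 higher in fed KO than in fed WT livers (adjusted p = 0.00146). In fasting Igfbp2 was higher, at 1.16 ± 0.14 in KO and 1.68 ± 0.14 in WT livers. Scaling by library totals made the fasted genotype count 2 higher and 2 lower.

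The list of reported FOXO targets held calls in both directions. Of 25 genes, 5 were higher and 7 lower in fed KO against fed WT livers (median -0.05), and 3 higher and 9 lower in fasted KO against fasted WT livers (median -0.16). The calls were 48% of the list in each feeding state, beside 30.9% of all genes in fed and 28.3% in fasted livers. The 5 higher in fed livers became 3 without fed KO replicate 4 or fed WT replicate 3. The 9 lower in fasted KO livers ranged over 6 to 10 when 1 library was left out. Without both fasted WT libraries rich in pancreatic transcripts, the fasted genotype split was 2 higher and 7 lower. Pck1, the gluconeogenic enzyme gene, was lower in KO at -0.75 ± 0.13 fed and -0.62 ± 0.13 fasted (adjusted p = 0.000337 and 0.00179), and Sesn3 at -0.51 ± 0.10 fed and -0.82 ± 0.10 fasted. Cat, encoding catalase, was lower at -0.44 ± 0.07 fed and -0.40 ± 0.07 fasted. In the other direction from these, and with Igfbp1, Gadd45a was higher at 2.09 ± 0.46 fed and 3.65 ± 0.49 fasted, and Pdk4 was higher at 2.45 ± 0.46 fed. In fasted livers Pdk4 did not pass (0.82 ± 0.44, adjusted p = 0.186). In fasting, 4 were higher and 6 lower in KO livers and 6 higher and 7 lower in WT livers. Those are 40% and 52% of the list, beside 41.4% and 34.5% of all genes. Pnpla2, adipose triglyceride lipase, was higher at 1.05 ± 0.12 in KO and 1.16 ± 0.12 in WT. The 7 lower in WT livers became 4 when replicate 2 of fasted WT, or replicate 1 or 4 of fed WT, was left out. They also became 4 without both fasted WT libraries rich in pancreatic transcripts. Under scaling by library totals the splits were 9 higher and 5 lower in fed and 4 and 4 in fasted genotype comparisons, and 4 higher and 10 lower in KO fasting.

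Targets of CREB3L3 gave 4 higher and 3 lower of 8 in fed KO against fed WT livers (median 0.37) and 2 higher and 0 lower in fasted KO against fasted WT livers (median 0.17), while Creb3l3 itself was lower. The calls were 87.5% of the list in fed livers, beside 30.9% of all genes, and 25% in fasted livers, near the 28.3% of all genes. The fed count ranged over 5 to 7 when 1 library was left out. Fgf21, the fasting hormone, was higher at 3.62 ± 0.42 fed and 3.57 ± 0.37 fasted (adjusted p = 3.98e-05 and 2.19e-05), and Apcs, an acute-phase gene, at 2.89 ± 0.43 fed and 2.35 ± 0.42 fasted. Apoa5, a triglyceride-lowering apolipoprotein gene, was lower in fed KO livers at -0.95 ± 0.11 (adjusted p = 2.96e-06) and was -0.23 ± 0.10 in fasted KO livers (adjusted p = 0.111). Its interaction was 0.72 ± 0.15 (adjusted p = 0.0217), and was lost without fed KO replicate 3 (0.0522) and without both fasted WT libraries rich in pancreatic transcripts (0.0756). In fasting, 5 were higher and 0 lower in KO and 4 higher and 0 lower in WT livers. Those are 62.5% and 50% of the list, beside 41.4% and 34.5% of all genes. Cidec, a lipid droplet gene, was higher at 6.40 ± 0.26 in KO and 5.98 ± 0.27 in WT. Scaled by library totals, the fed split was 4 higher and 2 lower and the WT fasting split 3 higher and 1 lower.

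Cyclic AMP and CREB targets, the group Sik1 belongs to, gave 1 higher and 2 lower of 13 in fed KO against fed WT livers and 0 higher and 2 lower in fasted KO against fasted WT livers (medians -0.05 and -0.25), and Pck1 was among the lower in both. These were 23.1% and 15.4% of the list, beside 30.9% and 28.3% of all genes. Pck1, G6pc and Ppargc1a stand in this list and in that of FOXO targets, so the lists are not separate evidence. The genes lower in fasted KO livers, Pck1 and Ppargc1a, are among these. Library totals gave 2 higher and 1 lower in each feeding state. The fed count was 1 without fed KO replicate 1 or 4, and the fasted count 1 without fasted KO replicate 3 or 4 or fasted WT replicate 1 or 4. In fasting, 3 were higher and 4 lower in KO livers and 3 higher and 2 lower in WT livers. Those are 53.85% and 38.46% of the list, beside 41.4% and 34.5% of all genes. Pde4d, a cyclic AMP phosphodiesterase gene, was higher in fasted livers at 1.56 ± 0.23 in KO and 1.87 ± 0.24 in WT, as Sik1 was, and Crem, encoding a CREB family factor, was lower at -0.92 ± 0.14 in KO and -0.68 ± 0.14 in WT. Genes of the glucagon receptor, protein kinase A, CREB, CRTC and SIK relay gave 0 of 13 calls in fed KO against fed WT livers by edgeR's quasi-likelihood test, with 1 at an unadjusted p under 0.05 and 0 called by the DESeq2 Wald test. In that comparison 30.9% of all genes were called. Leaving out fed KO replicate 2 gave 2 calls there, and library totals alone 5 higher and 0 lower. In fasted KO against fasted WT livers 2 were higher and 3 lower (38.5% of the list, beside 28.3% of all genes), of which Prkacb was -0.26 ± 0.06 and Prkaca -0.28 ± 0.07, and library totals alone gave 6 higher and 0 lower. That count was 3 without fasted KO replicate 2 or 4 or fasted WT replicate 3, and 2 without fasted WT replicate 1.

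Of 22 genes of the relay downstream of or beside the insulin receptor, 2 were higher and 0 lower in fed KO against fed WT livers (median 0.05), and 3 higher and 1 lower in fasted KO against fasted WT livers (median -0.004), where Mtor was 0.55 ± 0.08 higher (adjusted p = 7.13e-05) and Igf1r 0.70 ± 0.18 higher (adjusted p = 0.00605). The calls were 9.09% of the list in fed livers, beside 30.9% of all genes, and 18.2% in fasted livers, beside 28.3%. The fed count was 4 without fed KO replicate 2, and 1 without fed KO replicate 1 or 3, any 1 of the fed WT replicates, fasted KO replicate 2 or 3 or fasted WT replicate 2. The fasted count was 2 without fasted WT replicate 3. Scaling by library totals gave 13 higher and 0 lower in fed livers and 7 and 0 in fasted livers. In fasting, 5 were higher and 1 lower in KO livers and 5 higher and 2 lower in WT livers. Those are 27.27% and 31.82% of the list, beside 41.4% and 34.5% of all genes. Pdpk1, the kinase that activates AKT, was higher at 0.45 ± 0.09 in KO and 0.50 ± 0.09 in WT. Library totals alone gave 5 and 4 in KO and 3 and 3 in WT. The WT fasting count was 4 without fasted WT replicate 3 or fed WT replicate 3. It was 3 higher and 3 lower without both fasted WT libraries rich in pancreatic transcripts.

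Among 12 genes that damp insulin signalling, 2 were higher and 1 lower in fed KO against fed WT livers (median 0.03), and 2 higher and 0 lower in fasted KO against fasted WT livers (median 0.11). The calls were 25% of the list in fed and 16.7% in fasted livers, below the 30.9% and 28.3% of all genes. Trib3, a paralogue of Trib1 that is known as a stress gene and an AKT binding protein, was higher where Trib1 was lower, at 3.12 ± 0.40 in fed KO livers (adjusted p = 9.22e-05) and 4.34 ± 0.40 in fasted KO livers (adjusted p = 8.17e-06). Grb10, an adaptor that restrains the insulin and IGF receptors, was 0.81 ± 0.17 higher in fasted KO than in fasted WT livers (adjusted p = 0.00133). Socs3, a cytokine-induced suppressor, was -1.97 ± 0.56 in fed KO against fed WT livers (adjusted p = 0.0179). That call was lost without fed KO replicate 3 (0.0515) and when only the 8 fed libraries were fitted (0.0735). Without fed WT replicate 1 the Socs3 difference shrank to -1.04 (adjusted p = 0.0366), so its size rested largely on that library. Without both fasted WT libraries rich in pancreatic transcripts the fasted count was 4 higher and 0 lower, and library totals alone gave 5 higher and 1 lower in fed livers and 6 and 0 in fasted livers. In fasting, 5 were higher and 2 lower in KO livers and 4 higher and 2 lower in WT livers. Those are 58.33% and 50% of the list, beside 41.4% and 34.5% of all genes. Ptprf, a receptor phosphatase gene, was lower at -0.51 ± 0.10 in KO and -0.82 ± 0.10 in WT livers. Library totals gave 2 and 2 in KO livers and 3 and 2 in WT livers, and the KO count was 3 without fed KO replicate 1.

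**Figure D4:**
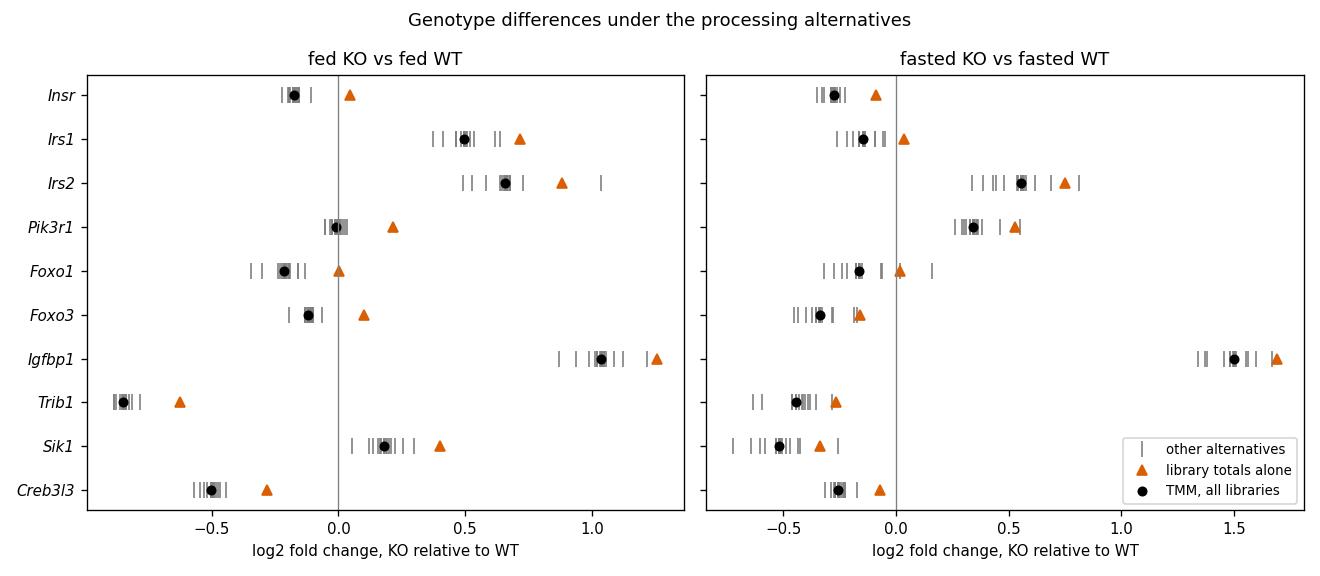
Log2 fold change of each gene between KO and WT with TMM scaling of all libraries (circles), with library totals alone (triangles) and under the other alternatives (ticks), in fed livers on the left and fasted livers on the right. Igfbp1 lies above 0.8 in all fits of both panels, and Trib1 below 0 in all fits of both panels.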

How the data were processed

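Liver RNA of 16 mice (500 ng each) went into stranded poly(A) libraries, as the labels' protocols state. The authors deposited raw counts, whole reads per gene without normalization. The submitters' processing notes name cutadapt 1.8, STAR 2.5.3a, HTSeq 0.9.1 and the build GRCm38. Strand setting and annotation release are not known here. Symbols and positions came from GENCODE M21 (GRCm38), which held 53619 of 53714 identifiers.

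The 5 summary lines that name no gene were left out: reads aligned to several places (32.0% to 45.8% of all counts), reads meeting no gene (2.98% to 4.29%) and reads meeting more than 1 (1.05% to 1.65%). Groups came from the labels. Genes with low counts were removed with filterByExpr of edgeR 4.0.16 in R 4.3.3, counts were scaled by TMM, and all 16 libraries entered 1 model with a coefficient per group (12 residual degrees of freedom, common biological coefficient of variation 0.138). The 5 contrasts were tested with the robust quasi-likelihood F test, adjusted by Benjamini-Hochberg over 13905 genes, with a threshold of 0.05; log2 CPM used a prior count of 2. The script was tested on simulated data. CPM is relative to TMM-scaled gene reads. DESeq2 1.42.0 was an alternative.

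The 10 genes, the lists and the left-out pancreatic libraries were chosen with earlier results of these data known. All 10 genes are named; from each list up to 4 called genes with the smallest p per comparison, or genes against the list's majority, may be named. Some list genes are not reported here, and list counts leave them out. Sequences are RefSeq's; no other promoter windows were used.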

Additional observations from a re-analysis of the deposited data

Results flagged for a closer look

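Of 40 sets of 4 libraries examined (10 genes in 4 groups), 1 held a library far from the others. Trib1 had 37.5 CPM in fasted WT replicate 3, against 60.4 to 62.7 CPM in the other 3 fasted WT livers. The gap was 0.909 of the range of the group, above Dixon's 95% critical value, which chance passes in about 1 of 20 groups. Without that library the fasted genotype difference of Trib1 was -0.60 (adjusted p = 0.00201), beside -0.45 (adjusted p = 0.0457) with it.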

How the results depend on the processing

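Alternatives numbered 25, of which 16 left out 1 library. The values of the 10 genes kept their side of the threshold in 1163 of 1240 recalculations, 70 lost a call, 7 gained one, and no call changed direction. Most of these recalculations were of comparisons with no call to lose, so the 1163 say little of how firm the calls were. All 70 losses fell on the 17 calls, of which 9 held in all 24 alternatives at the threshold of 0.05. In fasted KO against fasted WT livers the 5 calls became 2 with library totals alone, 3 with no filter on low counts, 3 with only the 8 libraries compared, 1 at an adjusted p under 0.01 and 3 without both fasted WT libraries rich in pancreatic transcripts, and ranged over 2 to 6 when 1 library was left out. In fasted KO against fed KO livers the 5 calls became 2 at an adjusted p under 0.01 and ranged over 3 to 5 when 1 library was left out (3 without fasted KO replicate 4 or fed KO replicate 4). The fasted WT against fed WT count ranged over 2 to 4, the fed genotype count over 3 to 4, and the interaction count stayed at 0. The causes were not tested.

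Same-numbered deviations correlated at -0.174 to 0.251. Pairs with different numbers were not set beside them, so whether replicate numbers pair the libraries is not settled. With the replicate number as a block the counts were 3 in fed KO against fed WT (Irs1 lost, adjusted p = 0.0555), 5 in fasted KO against fasted WT, 5 in fasted KO against fed KO, 3 in fasted WT against fed WT and 0 for the interaction.

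The list genes were put through the same alternatives after their values were seen. With library totals alone the called list gene Mttp changed sign between fed KO and fed WT livers (0.019, adjusted p = 0.862). With that scaling the called genes of the whole table split 4877 higher and 915 lower in fed and 4301 and 902 in fasted genotype comparisons, instead of 1948 and 2351, and 1918 and 2011. Depth was at least 362 reads for each of the 10 genes in each library.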
